A study of Mus musculus with 11 samples.

Results

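Adrenergic receptors carry the signal of noradrenaline and adrenaline into the cell, and 8 of their genes were followed here in the hearts of mouse embryos: Adrb1, Adrb3, Adra1a, Adra1b, Adra1d, Adra2a, Adra2b and Adra2c. They were chosen by gene symbol, with earlier results of these data known, and 8 of 8 were found among the 55487 genes with counts. RNA had been sequenced from 5 Pde2A-/- hearts (KO A, KO B, KO D, KO 14 and KO 15) and 6 Pde2A+/+ hearts (WT 6, WT 7, WT 8, WT 11, WT E and WT H), 1 library per heart, at E14.5. All embryos were of the mixed background B6; 129P2 and came from matings of heterozygous parents. The knockout embryos carried the allele Pde2A<tm1Dgen> on both chromosomes and in all tissues, so the hearts came from embryos that lack the enzyme outside the heart too. Pde2A degrades cAMP and cGMP, and the comparison asks how the transcripts of the developing heart differ without it. Metoprolol, which blocks the receptor encoded by Adrb1, was given in other experiments of the study, while the labels of these 11 hearts name no treatment.

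The receptors fall into 3 classes by the G protein they couple to. Beta receptors act through Gs, which switches on adenylyl cyclases and raises cAMP, and through protein kinase A this makes cardiomyocytes beat faster and harder. Alpha1 receptors act through Gq and phospholipase C beta, which releases calcium from internal stores and favours contraction and growth. Alpha2 receptors act through Gi, which holds adenylyl cyclase back, and they are best known for restraining noradrenaline release from sympathetic nerve endings and for acting on blood vessels. In the fetus, circulating and locally made catecholamines reach the heart before its sympathetic nerves are complete.

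The libraries held 35865537 to 42835382 counts on the sense strand of genes, and this total did not separate the genotypes (exact two-sided permutation test, p = 0.87). Pde2a itself had 0 to 2 counts per heart and 7 in all, so it gives no check of the genotype labels. The 8 cardiomyocyte markers chosen for a check of the tissue, Myh6 and Tnnt2 among them, summed to 32226 to 42151 counts-per-million (CPM) in the 11 hearts, and none was at 0. The labels name no litter, sex or batch, and p-values therefore measure the spread between these hearts. edgeR's quasi-likelihood test was run on 24177 genes that reached 10 counts in total, and 14.6% had a Benjamini-Hochberg adjusted p under 0.05, 8.86% higher and 5.72% lower in Pde2A-/-. That threshold is what "rose" and "fell" mean here.

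The members lie on 6 chromosomes in GRCm38 (GENCODE M21), and none lies on the chromosome of Pde2a, 7. Adrb1 is at chr19:56722199-56733113 on the plus strand, and Adrb3 at chr8:27225776-27250616 on the minus strand. The alpha1 genes are Adra1a at chr14:66635251-66771168 (plus), Adra1b at chr11:43774606-43901210 (minus) and Adra1d at chr2:131545850-131562283 (minus). The alpha2 genes are Adra2a at chr19:54044151-54048982, Adra2b at chr2:127363208-127367221 and Adra2c at chr5:35278319-35281763, all on the plus strand. The coding sequence of Adrb1, Adra2a, Adra2b and Adra2c lies in 1 exon each. No member shares exon bases with another gene on its own strand. On the opposite strand, Gm45470 covers 24.9% of the exon bases of Adrb3 and Gm14285 covers 7.74% of those of Adra1d, and the counts used here are those of the sense strand alone.

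The 250 bases before the RefSeq start of Adra2b, the member that differed between the genotypes, and of Adrb1, the member with the highest level, are shown so that both start regions can be compared (RefSeq, GRCm38.p6, plus strand, at chr2:127362929-127363178 and chr19:56721867-56722116). Of 5 short motifs searched on both strands, capitals mark matches to all but the E-box CANNTG, which matched neither stretch.
Adra2b: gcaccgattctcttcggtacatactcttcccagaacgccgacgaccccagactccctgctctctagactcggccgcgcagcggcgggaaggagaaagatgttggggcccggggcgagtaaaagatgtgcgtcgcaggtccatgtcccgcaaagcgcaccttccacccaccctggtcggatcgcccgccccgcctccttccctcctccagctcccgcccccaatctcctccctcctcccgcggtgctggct
Adrb1: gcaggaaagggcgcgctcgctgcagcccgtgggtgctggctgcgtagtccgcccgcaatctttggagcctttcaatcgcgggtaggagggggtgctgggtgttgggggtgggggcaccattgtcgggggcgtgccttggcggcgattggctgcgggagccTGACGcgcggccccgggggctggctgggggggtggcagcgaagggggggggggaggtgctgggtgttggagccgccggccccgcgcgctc
Both stretches are rich in G and C, with 66% in Adra2b and 74% in Adrb1. The Adrb1 stretch holds TGACG, the core of the cAMP response element, at -90 to -86 from the start. The Adra2b stretch holds no match to the full element TGACGTCA, its core TGACG, the GATA core AGATAA, the hypoxia response core ACGTG or the E-box CANNTG, and neither do its first 50 transcribed bases.

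These motifs are short and common. Among 32851 RefSeq windows of 300 bases (250 before to 50 after a start), TGACGTCA was in 1.79%, TGACG in 20.8%, AGATAA in 11.2%, ACGTG in 19.6% and CANNTG in 72.3%. RefSeq windows were at hand for 5 of the 8 members, Adrb1, Adra1b, Adra2a, Adra2b and Adra2c. The window of Adra2a holds TGACG at -69 to -65 and CACGTG, which is both an E-box and an ACGTG match, at -80 to -75. The window of Adra2c holds CACGTG at -152 to -147 and 3 further E-box matches. A match describes letters and does not show that a factor binds there.

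The receptors spanned a wide range of levels in wild-type hearts, led by the Gs-coupled Adrb1 and the Gq-coupled Adra1b. Levels between genes are compared in transcripts-per-million (TPM), which divides the counts by the length of the exons. Adrb1 was at 13.7 ± 1.19 TPM (SD, n = 6), Adra1b at 9.93 ± 1.10 and Adra1d at 5.20 ± 1.21. Adrb3 stood at 1.19 ± 0.243 and Adra2b at 0.954 ± 0.330. Adra2c at 0.360 ± 0.0790, Adra2a at 0.329 ± 0.233 and Adra1a at 0.0554 ± 0.0191 TPM closed the order. The wild-type ranges of Adrb1, Adra1b and Adra1d did not touch each other or the range of Adrb3, and the range of Adra1a lay under that of Adra2a. Neighbours from Adrb3 to Adra2a had overlapping ranges. Compared within each heart, Adra2b was above Adra2c in every wild-type heart. The order of Adrb3 and Adra2b, and of Adra2c and Adra2a, differed between hearts and is not settled by them. In Pde2A-/- hearts 6 of the 8 receptors kept their rank, and Adra2b at 3.92 ± 0.530 TPM (SD, n = 5) and Adrb3 at 0.919 ± 0.215 exchanged ranks 4 and 5.

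**Figure D1:**
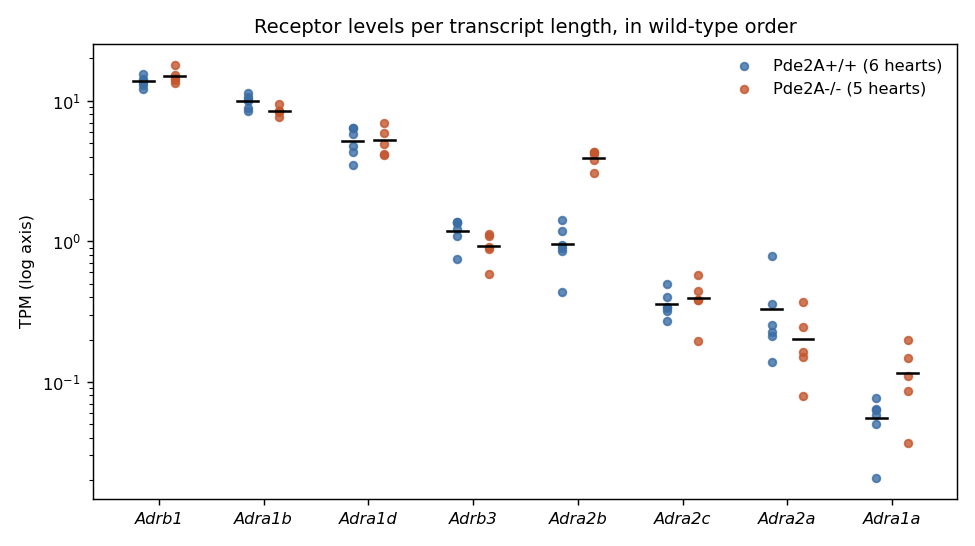
Level of each receptor in TPM on a log axis, ordered by the wild-type mean, with 1 point per heart (6 Pde2A+/+, 5 Pde2A-/-) and black bars at the group means. The Pde2A-/- points of Adra2b, around 3.92 TPM, lie above all its Pde2A+/+ points, around 0.954 TPM, while the points of the other 7 receptors overlap between the genotypes.

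In the comparison of genotypes, 1 of 8 receptors rose in Pde2A-/- hearts, against 8.86% of all tested genes, and 0 of 8 fell, against 5.72%. Without adjustment, 2 of 8 had a higher and 1 a lower level at a p under 0.05. DESeq2 with its own adjustment called 1 higher and 1 lower, and gave no adjusted p for Adra1a. No share of all tested genes is given for these calls, as 8.86% and 5.72% belong to the edgeR threshold. The log2 fold change was above 0 for 4 of the 8, with a median of 0.03, while the median over all tested genes was -0.02. With so few members these counts say nothing about the family as a whole, and the receptors are described by class.

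**Figure D2:**
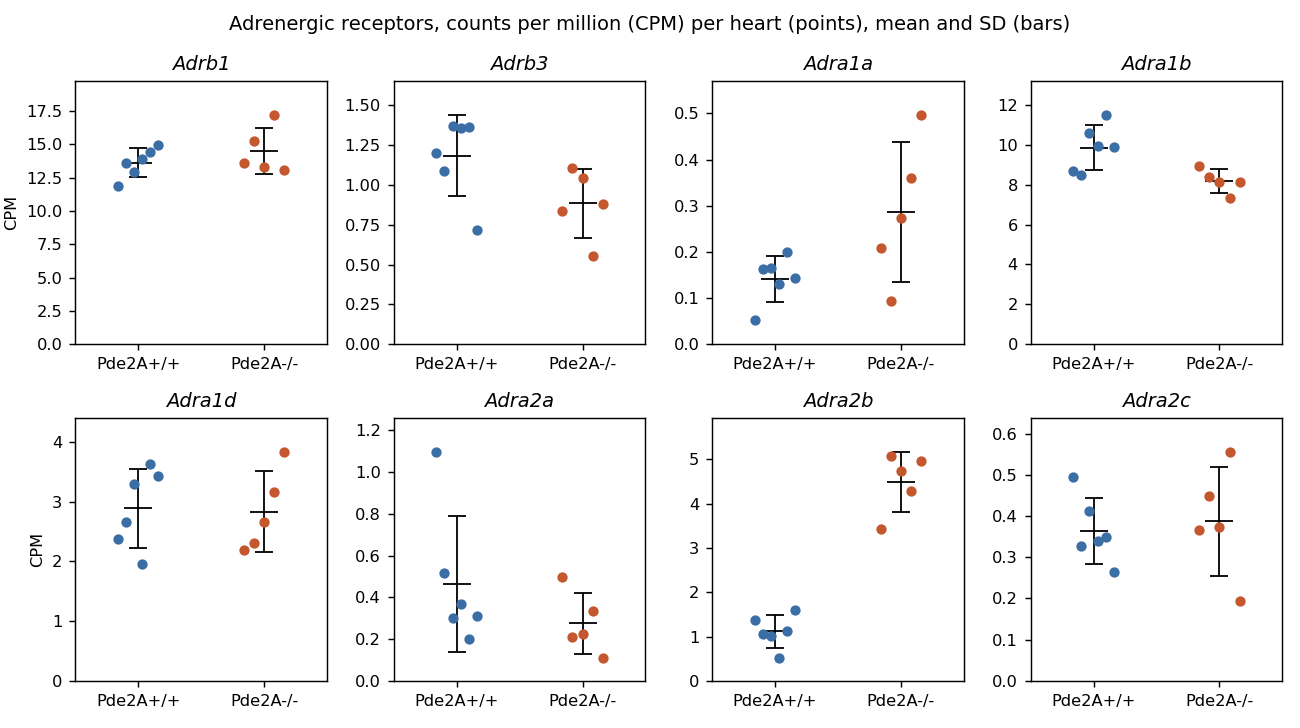
CPM of the 8 receptors (linear axes from 0) in each heart, with 1 point per heart and bars for the mean and SD of 6 Pde2A+/+ and 5 Pde2A-/- hearts. Adra2b is the 1 receptor whose groups do not overlap, with 0.523 to 1.61 CPM in Pde2A+/+ and 3.42 to 5.07 CPM in Pde2A-/-.

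The beta receptors did not pass the test in either direction. Adrb1, the main beta receptor of cardiomyocytes, had 13.6, 15.2, 17.2, 13.3 and 13.1 CPM in KO A, KO B, KO D, KO 14 and KO 15. In wild-type hearts its lowest, median and highest values were 11.9, 13.8 and 14.9 CPM. KO B and KO D were above every wild-type heart and the other 3 knockout hearts lay within the wild-type range. The mean was 14.5 ± 1.71 CPM (SD, n = 5) against 13.6 ± 1.09 (n = 6), a log2 fold change of 0.09 ± 0.08 (SE) with adjusted p = 0.528 in edgeR's quasi-likelihood test. The 95% interval ran from 0.938-fold to 1.21-fold, which bounds any difference in Adrb1 transcript more narrowly than for any other member.

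Adrb3, the receptor best known from fat tissue, was about 1 CPM in both genotypes. It had 0.835, 1.11, 0.555, 1.05 and 0.882 CPM in KO A, KO B, KO D, KO 14 and KO 15, and 0.720, 1.28 and 1.37 CPM as the lowest, median and highest wild-type values. KO D was below every wild-type heart and the other 4 knockout hearts fell within the wild-type range. The log2 fold change of -0.41 ± 0.21 (SE) had adjusted p = 0.211 in edgeR, and its 95% interval reached from -0.87 to 0.04. The opposite strand of Adrb3, where Gm45470 lies, carried 18.8% as many reads as the sense strand, more than for the other members (0.629% to 9.38%).

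Among the Gq-coupled alpha1 receptors, none passed the test, and Adra1b and Adra1a came nearest, in opposite directions. Adra1b, the more abundant of the class, had 8.95, 8.40, 7.33, 8.14 and 8.15 CPM in KO A, KO B, KO D, KO 14 and KO 15. The lowest, median and highest wild-type values were 8.51, 9.92 and 11.5 CPM. All knockout hearts but KO A lay below the lowest wild-type heart. The means were 8.19 ± 0.586 CPM (SD, n = 5) and 9.85 ± 1.13 (n = 6), a log2 fold change of -0.27 ± 0.09 (SE) with a 95% interval from -0.46 to -0.07 and adjusted p = 0.0655 in edgeR. The call depends on the setting: DESeq2 gave adjusted p = 0.0227, and edgeR gave 0.0482 without KO A, 0.0449 without WT 11 and 0.160 without KO D.

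Adra1a, the scarcest member, had 8, 4, 13, 11 and 18 counts in KO A, KO B, KO D, KO 14 and KO 15, and 2 to 8 counts in the wild-type hearts. As CPM, these were 0.209, 0.0944, 0.361, 0.274 and 0.496 CPM in the knockout hearts and 0.0522, 0.154 and 0.199 CPM as the lowest, median and highest wild-type values. KO B sat inside the wild-type range and the other 4 knockout hearts above it. The log2 fold change was 0.98 ± 0.41 (SE), with a 95% interval from 0.10 to 1.86 and adjusted p = 0.115 in edgeR, and without KO B it was 1.21 with adjusted p = 0.0304. Counting error alone gives a coefficient of variation of 42.6% at the mean wild-type count of 5.5 and of 30.4% at the mean knockout count of 10.8, and the coefficients seen between hearts were 35% and 53.0%.

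Adra1d, which takes part in the tone of large vessels, differed least. Its knockout hearts spanned 2.19 to 3.83 CPM and its wild-type hearts 1.96 to 3.63 CPM, almost the same range. The log2 fold change was -0.03 ± 0.19 (SE) with adjusted p = 0.933 in edgeR, and the 95% interval ran from 0.739-fold to 1.29-fold.

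Among the Gi-coupled alpha2 receptors, Adra2b rose and Adra2a and Adra2c did not pass the test. Adra2b encodes the subtype known for vascular responses to adrenaline. It had 131, 215, 154, 190 and 180 counts in KO A, KO B, KO D, KO 14 and KO 15, which is 3.42, 5.07, 4.27, 4.73 and 4.96 CPM. The wild-type hearts had 20 to 67 counts, with 0.523, 1.09 and 1.61 CPM as the lowest, median and highest values. The lowest knockout heart, KO A, was more than 1 CPM above the highest wild-type heart, WT E, and the groups did not overlap, which held for 8.49% of all tested genes.

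The means of Adra2b were 4.49 ± 0.673 CPM (SD, n = 5) and 1.12 ± 0.369 CPM (n = 6), a log2 fold change of 2.0 ± 0.22 (SE), or 4.0-fold with a 95% interval from 2.90 to 5.52, and adjusted p = 4.97e-05 in edgeR's quasi-likelihood test. Among the tested genes with a symbol of their own, 242 had a log2 fold change at least as large, Adra2b included. Of all 24177 tested genes, 2.5% were both called and at least 2-fold apart in either direction. Adra2b passed in 11 of 11 fits that left out 1 heart, with log2 fold changes from 1.86 to 2.14. Among the hearts named by a letter (3 knockout, 2 wild-type) it was 1.64 with adjusted p = 0.0516, and among those named by a number (2 knockout, 4 wild-type) 2.28 with adjusted p = 0.00177. The smaller of these fits called 95 of 21466 genes in all.

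Adra2a, the subtype of sympathetic nerve endings, had 0.496, 0.212, 0.333, 0.224 and 0.110 CPM in KO A, KO B, KO D, KO 14 and KO 15. Its wild-type values had a lowest of 0.199, a median of 0.339 and a highest of 1.10 CPM, the last in WT 7, far above the other 5. KO 15 was below every wild-type heart, and the rest of the knockout hearts overlapped with them. The log2 fold change was -0.75 ± 0.45 (SE) with adjusted p = 0.288 in edgeR, and without WT 7 it was -0.29 with adjusted p = 0.656. Adra2c, the other presynaptic subtype, spanned 0.193 to 0.555 CPM in knockout and 0.264 to 0.495 CPM in wild-type hearts, with a log2 fold change of 0.09 ± 0.27 (SE) and adjusted p = 0.864. These genes had 4 to 42 and 7 to 20 counts per heart, and their 95% intervals ran from 0.303-fold to 1.17-fold for Adra2a and from 0.715-fold to 1.59-fold for Adra2c. The spread of Adra2a between hearts, 70.1% of the mean in wild-type and 53.2% in knockout, was wider than the 23.7% and 30.7% that counting error gives.

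**Figure D3:**
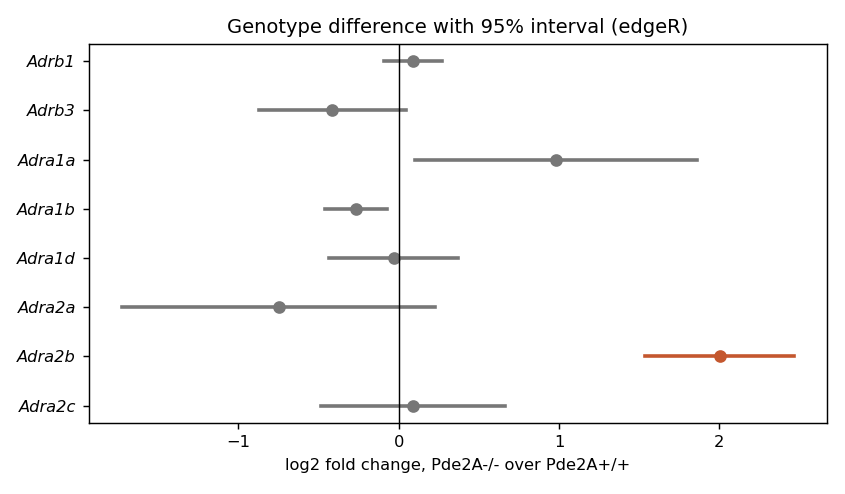
Log2 fold change of each receptor between Pde2A-/- and Pde2A+/+ hearts (points) with its 95% interval (lines) from edgeR, coloured where the adjusted p is under 0.05. Adra2b lies at 2.0 with an interval from 1.54 to 2.47, and the widest interval is that of Adra2a, from -1.72 to 0.23.

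The make-up of the 8 transcripts differed in the share of the alpha2 class. Of their summed TPM, the alpha2 genes held 11.6%, 13.2% and 14.4% as lowest, median and highest share in Pde2A-/- hearts, and 3.45%, 4.93% and 8.5% in Pde2A+/+ hearts. The alpha1 share was 37.2% to 45.1% against 44.9% to 51.2%, and the beta share 41.6% to 50.4% against 44.3% to 51.3%. The alpha2 shares did not overlap between the genotypes, the beta and alpha1 shares did, and no test was made because these shares repeat the gene values above. The ratio of Adra2b to Adrb1 in TPM was 0.0316 to 0.0979 in wild-type and 0.210 to 0.319 in knockout hearts, so Adrb1 stayed the more abundant transcript in all 11 hearts. The summed TPM of the 8 genes was 31.8 ± 2.77 (SD, n = 6) and 34.3 ± 1.63 (n = 5).

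**Figure D4:**
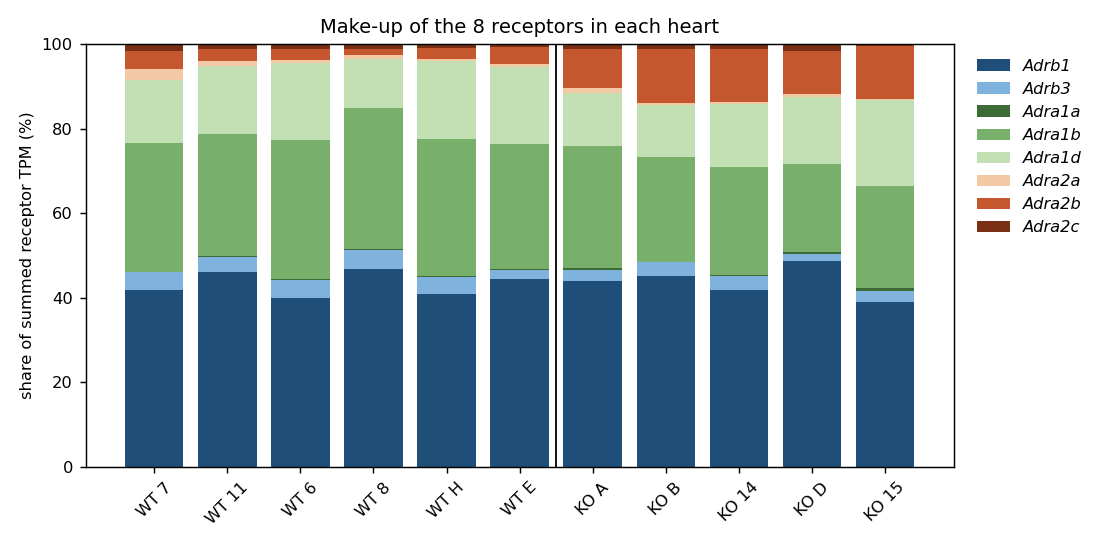
Share of each receptor in the summed TPM of the 8 genes (percent, stacked), with 1 bar per heart, 6 Pde2A+/+ on the left of the line and 5 Pde2A-/- on the right. The Adra2b segment is 1.48% to 4.09% in Pde2A+/+ hearts and 9.30% to 12.7% in Pde2A-/- hearts.

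Markers of blood and immune cells moved with genotype in the same hearts. Of 10 erythroid markers 9 rose, with a median log2 fold change of 2.81, and their summed level was 127 to 525 CPM in wild-type and 529 to 1004 CPM in knockout hearts. Alas2, the erythroid enzyme of heme synthesis, did not follow, with a log2 fold change of -0.60. Of 7 macrophage markers 6 rose, from a sum of 67.4 to 109 CPM to one of 142 to 185 CPM, and of 5 tested platelet markers 2 rose, from 13.0 to 24.8 CPM to 27.8 to 38.3 CPM. None of these markers was at 0 in all hearts. Their part in the rise of Adra2b was not tested, and in whole hearts a change in the number of cells of a type and a change in the RNA per cell cannot be told apart.

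Markers of other cell types were set beside the 8.86% of all tested genes that rose and the 5.72% that fell. Of 6 endothelial markers 2 rose, with sums of 1017 to 1195 CPM in wild-type and 1201 to 1321 CPM in knockout hearts. Of 8 cardiomyocyte markers 2 fell, of 7 smooth muscle markers 2 fell, and of 7 fibroblast and epicardial markers 1 rose and 1 fell. DESeq2 called 3 endothelial markers higher, 4 cardiomyocyte markers lower, and 1 smooth muscle marker higher and 3 lower. At an unadjusted p under 0.05, 4 endothelial markers were higher, 4 cardiomyocyte markers lower, and 1 smooth muscle marker higher and 4 lower. Of the 8 markers of sympathetic neurons and chromaffin cells 0 were called by edgeR, 0 at an unadjusted p under 0.05 and 0 by DESeq2, and their sum was 7.66 to 21.5 CPM in wild-type and 7.70 to 16.4 CPM in knockout hearts. WT 7, the heart with the high Adra2a value, had 19.8 CPM of them and WT 11 the highest sum. Of 3 tested brown fat markers 1 rose, while Ucp1 and Plin1 had too few counts to test. The 5 liver markers summed to 33.2 to 107 CPM in WT 11, WT E, WT H and KO D and to at most 2.08 CPM in the other hearts. Of these 5 markers 0 had a log2 fold change above 0, with a median of -2.32. None of them was called by edgeR, at an unadjusted p under 0.05 or by DESeq2. The part of these markers in the values of the receptors and of the genes around them was not tested.

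The genes whose level followed Adra2b most closely over the 11 hearts were Slc25a21, a mitochondrial carrier (Pearson r = 0.987 of log2 CPM), Pdia2, a protein disulfide isomerase (0.982), A730089K16Rik (0.979), Trim12c (0.977) and Irgm1, an interferon-induced GTPase (0.977). The points share the genotype difference, and all 5 of these genes had positive log2 fold changes, from 0.88 to 4.11. After the mean of each genotype was subtracted, the closest were Igfbp7, a secreted vascular protein (0.944), Il17rc (0.936), Arntl, a clock transcription factor (0.917), Plekhg1 (0.915) and Lgals8 (0.908). The 2 lists share no gene. Trim12c and Arntl lie on chromosome 7, the chromosome of Pde2a, and a part of strain sequence linked to the knockout allele was not tested. They were picked as the highest of 14017 genes over 11 hearts and are a description. For the 10 erythroid markers the same measure after subtraction ran from -0.19 to 0.76. The receptor nearest to Adra2b in this way was Adra1d, at 0.56, among the 4 receptors at 1 CPM or more that were compared.

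Around the receptors, 66 genes of G protein signalling and catecholamine handling were examined, of which 8 rose, 7 fell and 34 had a log2 fold change above 0, with a median of 0.01. The shares called, 8 and 7 of 66, stand beside 8.86% and 5.72% of all tested genes. No such share is given for the counts at an unadjusted p or by DESeq2 in these lists. Of 10 G protein alpha subunits 0 rose and 2 fell, Gnai1, an inhibitory subunit that alpha2 receptors use (log2 fold change -0.21 ± 0.06 SE, adjusted p = 0.0380), and Gna11, of the Gq family (-0.20 ± 0.06, adjusted p = 0.0389 in edgeR). Gnai1 kept its call in 5 and Gna11 in 3 of 11 fits without 1 heart. At an unadjusted p under 0.05, 1 of the 10 was higher, and by DESeq2 0. Gnas, which encodes Gs, was at 506 ± 22 TPM in wild-type (SD, n = 6) and 514 ± 15.5 TPM in knockout hearts (n = 5), with a log2 fold change of -0.02 ± 0.04 (SE) on the count scale.

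Among genes for proteins that end receptor signalling, those called were all higher in Pde2A-/- hearts. Of 7 receptor kinases and arrestins 1 rose, Arrb1 (beta-arrestin 1, which uncouples and internalizes receptors), from 69.8 ± 4.19 CPM (SD, n = 6) to 114 ± 13.9 CPM (n = 5), a log2 fold change of 0.71 with adjusted p = 3.17e-05 in edgeR and no overlap between the groups. None of this list fell, at an unadjusted p or by DESeq2 either. Whether Arrb1 or the other called genes around the receptors lie near Pde2a was not examined. Strain sequence linked to the knockout allele cannot be told apart from loss of the enzyme for genes near it. Of 11 RGS proteins, which speed the shut-off of Gi and Gq, 4 rose, with log2 fold changes for Rgs10 (0.48), Rgs2 (0.43), Rgs3 (0.34) and Rgs6 (0.26) and adjusted p from 0.00201 to 0.0214. Rgs6 lost its call without KO 14 (adjusted p = 0.0646), and the other 3 passed in all 11 such fits. None of the 11 fell in edgeR, at an unadjusted p or in DESeq2.

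Among the effectors, 1 of 9 adenylyl cyclases rose, Adcy7, which is abundant in blood and immune cells, from 11.9 ± 1.65 CPM (SD, n = 6) to 22.6 ± 2.99 CPM (n = 5), a log2 fold change of 0.92 with adjusted p = 8.91e-05 in edgeR. The main cardiac forms did not pass in edgeR: Adcy5 had a log2 fold change of -0.12 (adjusted p = 0.254) and Adcy6 of 0.25 (adjusted p = 0.0624), which passed without KO A and without KO B (lowest adjusted p = 0.0164). Of 4 phospholipase C beta genes 1 rose, Plcb3, with a log2 fold change of 0.34 and adjusted p = 0.00509. DESeq2 called 2 of the 9 adenylyl cyclases higher, the second being Adcy6 (adjusted p = 0.0322), and 2 were higher at an unadjusted p under 0.05. Neither list had a member that fell, at an unadjusted p or by DESeq2.

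Of 10 genes for catecholamine synthesis and storage 1 rose and 1 fell, both at low counts. Pnmt, which turns noradrenaline into adrenaline, had 16 to 23 counts in wild-type and 5 to 13 in knockout hearts, which do not overlap, with a log2 fold change of -0.92 ± 0.23 (SE) and adjusted p = 0.0194 in edgeR. Slc18a1, a vesicular monoamine transporter of chromaffin cells, had 9 to 17 and 9 to 49 counts, with a log2 fold change of 1.32 ± 0.36 (SE) and adjusted p = 0.0281, and kept its call in 4 of 11 fits without 1 heart. At an unadjusted p under 0.05, and also by DESeq2, 1 of the 10 was higher and 2 were lower. The second lower one in DESeq2 was Ddc (adjusted p = 0.0487), with 3924 to 8162 counts in wild-type and 3860 to 5520 in knockout hearts. In edgeR its log2 fold change was -0.36 ± 0.15 (SE) with adjusted p = 0.137, and 0.0305 without WT 11. Th and Dbh, enzymes before Pnmt in the pathway, had log2 fold changes of 0.38 (adjusted p = 0.736) and -0.17 (adjusted p = 0.724) in edgeR. Of 6 genes for uptake and breakdown 0 rose and 1 fell, Slc6a2, the noradrenaline transporter, with 3 to 19 and 2 to 6 counts. Its log2 fold change was -1.48 with adjusted p = 0.0466 in edgeR, a call kept in 2 of 11 fits without 1 heart. DESeq2 gave Slc6a2 a log2 fold change of -1.52 and no adjusted p. In that list 1 gene was higher at an unadjusted p under 0.05, and also by DESeq2.

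Of 9 cardiac targets of protein kinase A, the kinase that beta receptors switch on, 3 fell and 0 rose. Of all tested genes, 5.72% fell and 8.86% rose. At an unadjusted p under 0.05, and also by DESeq2, 4 of the 9 were lower and 0 higher. Tnni3 was among those lower in DESeq2 (adjusted p = 0.0258) and did not pass in edgeR (adjusted p = 0.0644). Ppp1r1a, an inhibitor of protein phosphatase 1, had a log2 fold change of -0.53 (adjusted p = 0.00112), Mybpc3, cardiac myosin binding protein C, of -0.34 (adjusted p = 0.0176) and Fxyd1, phospholemman, of -0.22 (adjusted p = 0.0432 in edgeR). Ppp1r1a passed in all 11 fits without 1 heart, Mybpc3 lost its call without KO 14 or KO D, where its adjusted p reached 0.0514, and Fxyd1 kept its call in 3. The values are transcript levels and do not show phosphorylation.

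**Figure D5:**
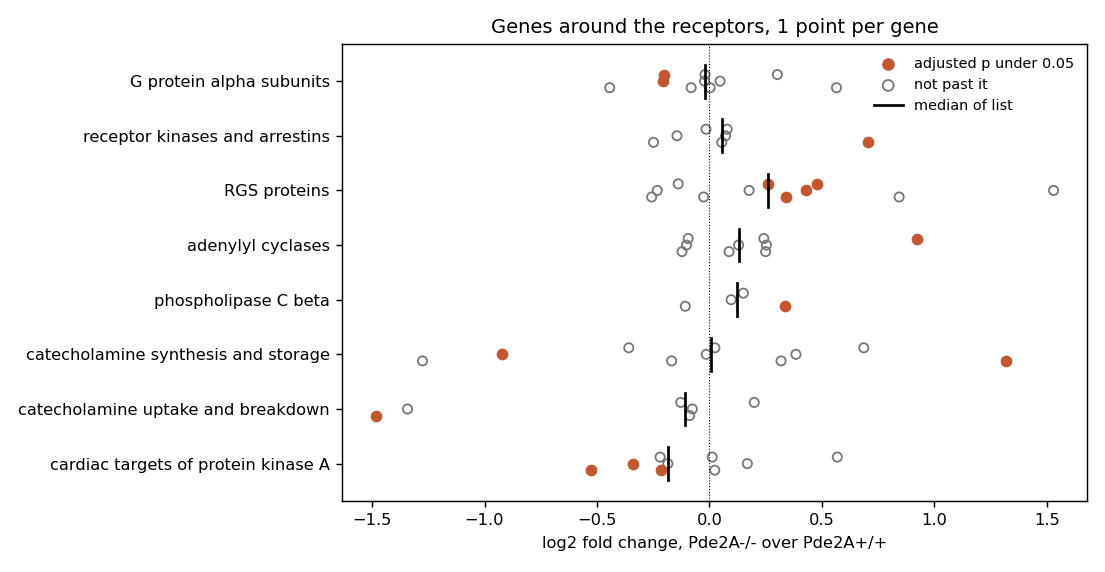
Log2 fold change between Pde2A-/- and Pde2A+/+ hearts of 66 genes in 8 lists around the receptors, with 1 point per gene, filled where the adjusted p is under 0.05, and a black bar at each list's median. The list medians lie between -0.18 and 0.26, and 4 of 11 RGS proteins are filled on the right of 0.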

How the data were processed

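Strand-specific poly(A) RNA libraries of whole hearts were sequenced as single-end reads, and the authors mapped them to GRCm38 with STAR (version not given in the sources used here). The deposited values are whole-number read counts per gene for each heart, raw and without filter, in 1 column ignoring strand and 1 for each strand. The sense column was used, and 19.59% to 22.38% of reads were not counted for any gene. Symbols came from GENCODE M21 for 55227 of 55487 identifiers. CPM used TMM-scaled library sizes, and TPM the union of exons. Genotypes were compared in edgeR 4.0.16 (R 4.3.3; quasi-likelihood, robust, at least 10 counts over 11 hearts, prior count 0.125), with Benjamini-Hochberg adjustment over 24177 genes, and DESeq2 1.42.0 as an alternative. On simulated data with 200 genes changed 4-fold (log2 change 2), edgeR recovered 200 and called 11 others of 23742 genes. The changed genes were drawn from those above 1 CPM, and all genes had the same dispersion. The simulation therefore does not measure recovery for scarcer or more variable members such as Adra1a, Adra2a and Adra2c. Members, lists and motifs were chosen with earlier results of these data known. Named genes were all 8 members, up to 4 called genes per list with the largest change, 6 preset genes and the 5 genes most like a called member at 1 CPM or more. Alternatives were other filters, size factors, priors, both strands, Xist level or naming style as a term, and leaving out each heart.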

Additional observations from a re-analysis of the deposited data

Results flagged for a closer look

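The Adra2a level in WT 7, 1.095 CPM from 42 counts, stood apart from the other 5 wild-type hearts, whose next value was 0.516 CPM. The gap was 0.646 of the range of the group, above Dixon's 95% critical value of 0.625. It was 1 of 16 groups examined (8 receptors in each genotype), and chance gives about 1 in 20.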

How the results depend on the processing

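No paired analysis was possible because the genotypes share no replicate name. The rise of Adra2b kept its direction in all 22 alternatives (log2 fold change 1.64 to 2.28) and its call in all but 1, the 3 knockout and 2 wild-type hearts named by a letter, where 0 members rose and 0 genes of the 66 around the receptors rose or fell. The prior count alternatives changed the fold change alone and kept the test of the main fit, so the call could not differ in them. Splits by naming style and a prior count of 2 were chosen after seeing the data. The count of members that fell was 1, Adra1b, under DESeq2, the filterByExpr filter (adjusted p = 0.0430) and naming style as a term (0.0481). Leaving out 1 heart gave 1 to 2 members higher (2 without KO B) and 0 to 1 lower (1 without KO A or WT 11). For the 66 genes it gave 6 to 10 higher and 2 to 8 lower, against 8 and 7, with 2 lower without KO 14 or KO D, 3 without KO 15, WT 6 or WT E, and 4 without WT 8 or WT H. With a 2-fold minimum added, 1 of them rose and 1 fell, beside 2.5% of all tested genes in either direction. In the hearts named by a number 12 rose and 3 fell, in a fit that called 4361 of 22191 genes in all. Fold changes of Adra1d, Adra2a and Adra2c changed sign in 7, 1 and 2 alternatives, none of them called. The cause of these shifts was not tested. Adra1a did not pass filterByExpr and has no value there. The level order was the same with the longest transcript, and without a length correction Adra2a and Adra2c exchanged ranks. Adra1a and Adra2c had 2 to 20 counts per heart.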
